A study of Mus musculus with 6 samples.

Results

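Cluster 13 gathers cells with a high share of mitochondrial RNA, in a single-cell study of the mouse mammary tumour line PB3 under repeated rounds of eribulin or paclitaxel. Its members are the cells to which the authors' table gives the cluster number 13, and they number 294 of 51785 cells. Among the 14 deposited clusters, with whole cells and nuclei pooled, it had the highest median mitochondrial share, 68.1%, with cluster 10 next at 15.0%. Its median depth was the lowest, at 1102 UMIs (counted RNA molecules), with cluster 4 next at 1636. Clusters 10 and 4 were mostly nuclei, with 167 of 2290 and 155 of 4900 being whole cells. Among whole cells alone, cluster 13 kept both places, at 68.2% and 1095 UMIs. Cluster 10 was then next in both, at 6.28% and 4794 UMIs. Of the 294 members, 242 came from run 2, 50 from run 1 and 2 from run 3, although run 2 supplied only 24.7% of all cells in the table.

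The mitochondrial genome encodes a small set of respiratory chain subunits and ribosomal RNAs, and its transcripts stay inside the organelle. When the outer membrane of a cell breaks, cytoplasmic RNA can leak out while the mitochondria are retained, so a high mitochondrial share is widely used as a sign of a damaged or dying cell in droplet sequencing. Eribulin blocks the growth of microtubules and paclitaxel stabilises them. Both can arrest dividing cells in mitosis, and a prolonged arrest can end in cell death.

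All groups were PB3 cells carrying lentiviral lineage barcodes, which are synthetic sequences inherited by daughter cells, so the untreated cells carried them as well. Run 1 held cells after 4 rounds of eribulin (ERI4 cells) and untreated cells (UNT cells), each as 1 library. In run 2, cells after 1, 2 and 3 rounds of eribulin (ERI1, ERI2, ERI3) shared 1 library, and cells after 1, 2 and 3 rounds of paclitaxel (PAC1, PAC2, PAC3) shared another, with hashtag oligos marking the condition of each cell. Run 3 held nuclei, after 4 rounds of eribulin (ERI4 nuclei) and untreated (UNT nuclei), from a combined RNA and chromatin assay. Eribulin was given at 500 nM for 72 h per round, followed by 48 h of recovery. The first paclitaxel round used 100 nM for 72 h, later rounds used 250 nM, and 48 h of recovery separated the first round from the second. For PAC2 a final recovery is not mentioned in the labels, and for PAC1 and PAC3 its length is not given. Run 2 held no untreated condition.

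Outside cluster 13 the median cell of a whole-cell condition held between 11324 UMIs in ERI3 and 20926 in ERI4 cells, and its mitochondrial share was between 2.58% in PAC3 and 4.70% in ERI4 cells. Nuclei outside cluster 13 were shallower, with medians of 2089 UMIs in ERI4 nuclei and 3428.5 in UNT nuclei. Each condition had 1 library, so no test was made and no difference below was set against the spread between cultures. Intervals in parentheses are exact Clopper-Pearson 95% intervals of a share and cover counting error only. The cell barcode of 2 of the 294 members was also present in another library, a share of 0.680%, against 0.948% of the other cells.

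Run 2 differed from the other runs in which cells had been kept. By the filter the authors state, a cell is removed if fewer than 200 genes were detected or if mitochondrial genes took more than 50% of its UMIs. The table nevertheless holds 179 cells over 50%, and every one of them was a member of cluster 13 from run 2. Of these, 128 also had under 200 genes. No cell of run 1 or run 3 fell outside these limits, and the highest mitochondrial share among the run 1 members was 49.6%. The shares below are therefore given for all cells and for the cells inside the stated filter, and run and treatment cannot be told apart between runs.

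Over all cells, cluster 13 took a larger share in every condition of run 2 than in either condition of run 1, whose cells had all passed the stated limits. In ERI1 the share was 1.93% (1.36 to 2.66), in ERI2 it was 3.50% (2.55 to 4.67), and in ERI3 it was 1.17% (0.821 to 1.62). In PAC1 it was 1.06% (0.720 to 1.50), in PAC2 it was 4.48% (3.19 to 6.10), and in PAC3 it was 2.04% (1.55 to 2.64). The second round was the highest of each drug, and its interval overlapped that of the first round for eribulin and neither of the other rounds for paclitaxel. The numbers of members differed less than the shares did: ERI1, ERI2 and ERI3 had 36, 44 and 36 members among 1865, 1257 and 3076 cells, and PAC1, PAC2 and PAC3 had 31, 38 and 57 among 2928, 848 and 2792 cells. PAC2 and ERI2, with the highest shares, were also the conditions with the fewest cells in the table.

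In run 1, cluster 13 held 30 of 9331 ERI4 cells, 0.322% (0.217 to 0.459), and 20 of 11061 UNT cells, 0.181% (0.110 to 0.279), and these intervals overlap. In run 3 it held 0 of 8711 ERI4 nuclei (0 to 0.0423), where 3 nuclei would be 0.0344%, and 2 of 9916 UNT nuclei, 0.0202% (0.00244 to 0.0728). A difference of that size between the nuclei libraries was not detectable at this number of nuclei.

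Inside the stated filter the shares were lower, and the differences between rounds were smaller in percentage points. The second round was still the highest of each drug. ERI1 then had 0.544% (0.261 to 0.998) of its cells in cluster 13, ERI2 had 0.899% (0.449 to 1.60), and ERI3 had 0.426% (0.227 to 0.727). PAC1 had 0.413% (0.213 to 0.719), PAC2 had 0.613% (0.199 to 1.43), and PAC3 had 0.437% (0.226 to 0.762). These 6 intervals overlap one another, and they rest on 10, 11, 13, 12, 5 and 12 cells. All 6 also overlap the interval of ERI4 cells, and all but that of ERI2 overlap the interval of UNT cells. The difference between ERI2 and PAC2 was -0.981 percentage points over all cells and 0.285 inside the filter, so its direction turned. It also turned among cells with at least 1000 UMIs, where it was 0.438 and ERI2, not PAC2, had the highest share.

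**Figure D1:**
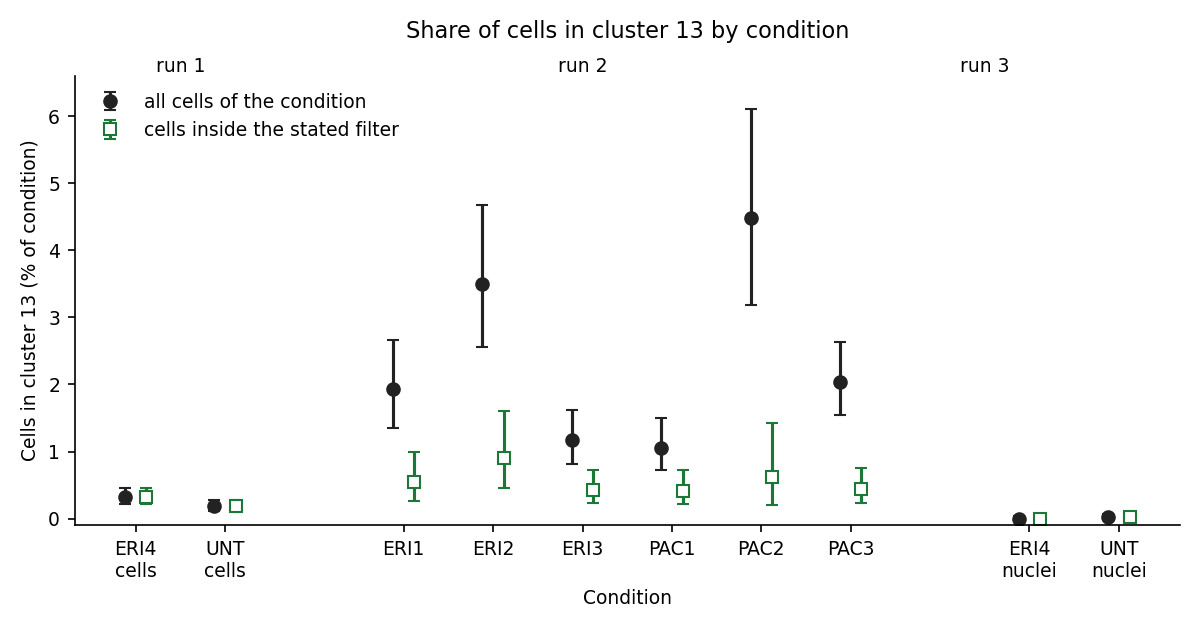
The percentage of each condition's cells that lie in cluster 13 is plotted by condition, with exact 95% intervals, for all cells (filled circles) and for cells inside the stated filter (open squares). Over all cells PAC2 is highest at 4.48% and ERI2 next at 3.50%, while inside the filter no condition exceeds 0.899%.

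The deposited mitochondrial percentages were high in cluster 13 in every whole-cell condition. Since the clustering used the genes of these cells, the values are a description. In run 1 the lowest, median and highest mitochondrial share among members was 19.9%, 37.8% and 49.6% in ERI4 cells and 24.3%, 39.8% and 48.8% in UNT cells. The medians of the other cells were 4.70% in ERI4 cells and 4.08% in UNT cells. The groups overlapped at their edges, since the highest of the others reached 34.7% in ERI4 cells and 31.6% in UNT cells.

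Members from run 2 reached far higher shares. The lowest, median and highest were 19.5%, 77.7% and 93.3% in ERI1, 18.7%, 77.9% and 91.2% in ERI2 and 15.6%, 68.2% and 85.5% in ERI3. They were 13.2%, 71.9% and 87.0% in PAC1, 27.9%, 77.6% and 91.8% in PAC2 and 16.7%, 69.3% and 89.4% in PAC3. The third round had the lowest median of each drug, but for paclitaxel this order turned with the mean, at 57.5% in PAC1 and 64.9% in PAC3, and among members with at least 1000 UMIs, where the medians were 26.9% in PAC1 and 67.0% in PAC3.

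The members of run 2 fell into a large group at high shares and a smaller one at lower shares, with few between. Of the 242, 63 lay at or under 50% and 179 over it. Between 60% and 90% there were 30, 74 and 63 cells per step of 10 percentage points, between 40% and 60% there were 10 and 9, and between 20% and 40% there were 17 and 26. The part over 50% was 26 of 36 members in ERI1, 33 of 44 in ERI2, 23 of 36 in ERI3, 19 of 31 in PAC1, 33 of 38 in PAC2 and 45 of 57 in PAC3. PAC2 had the largest part over 50%, with 86.8%, and PAC1 the smallest, with 61.3%. Damage itself, such as a broken membrane, was not measured, and no gene values were analysed here, so the cells are called by their cluster number.

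**Figure D2:**
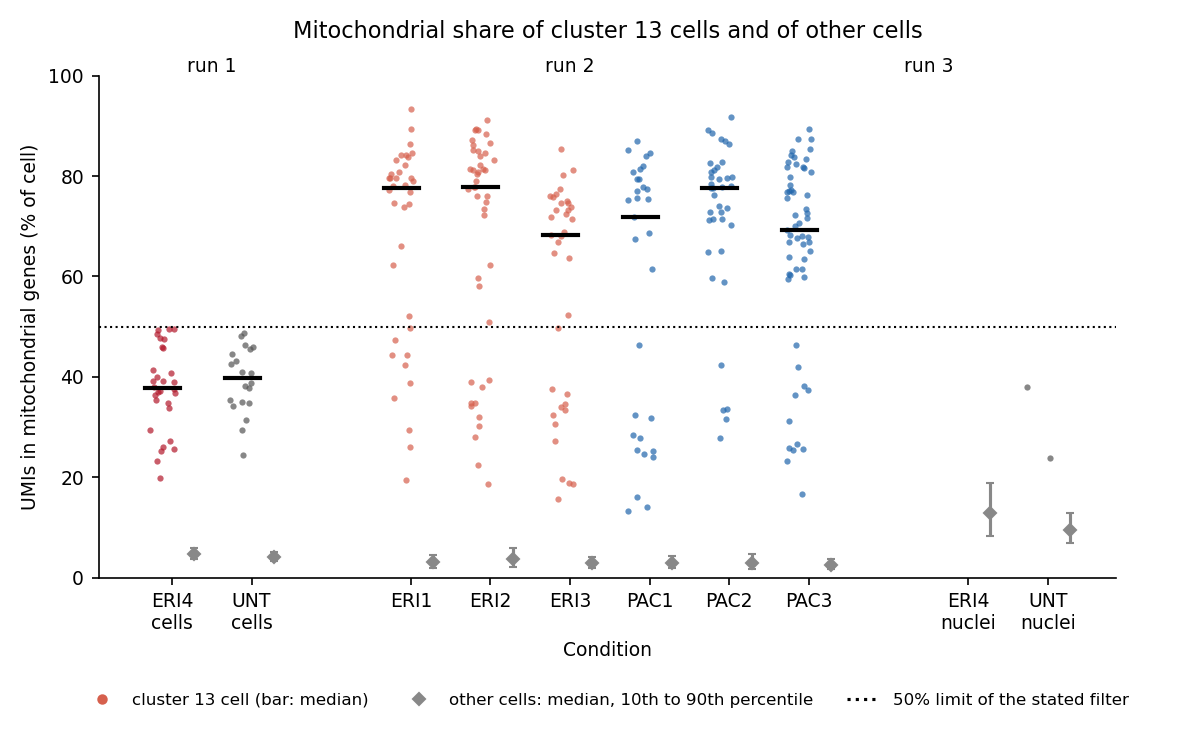
Each coloured point is the mitochondrial share of 1 cluster 13 cell in percent of its UMIs, with the median as a black bar, by condition; grey diamonds give the median and the 10th to 90th percentile of the other cells. Run 1 members end under the dotted 50% limit, with a highest value of 49.6%, while the medians of run 2 lie between 68.2% and 77.9%.

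A high mitochondrial share alone did not place a cell in cluster 13, since nuclei behaved otherwise. Over a share of 20%, 281 of the 298 whole cells were members and 17 were not. Of the nuclei over 20%, 2 were members and 629 were not, and 616 of those were ERI4 nuclei. Cluster 10 held 318 of these and cluster 4 held 222. The 2 member nuclei, both untreated, had mitochondrial shares of 23.9% and 38.0%, with 2853 and 3204 UMIs, and the median UNT nucleus outside the cluster had 3428.5 UMIs.

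Depth in cluster 13 was low throughout, and lowest in run 2. Members had medians of 4353 UMIs and 1587.5 genes in ERI4 cells, against 20926 UMIs and 4335 genes in the other ERI4 cells. In UNT cells the medians were 2820 UMIs and 1067.5 genes among members and 18447 UMIs and 3983 genes among the others. In run 2 the member medians lay between 773 UMIs in PAC2 and 1229.5 in ERI2, and between 149 genes in ERI1 and 238 in ERI3. The lowest values of run 2 members sat at 500 to 509 UMIs, next to the lowest count in the whole table, which is 500. The others of run 2 had medians of 11324 to 17884 UMIs.

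Splitting each cell's UMIs into mitochondrial and other genes showed that the members were low in the UMIs of other genes and not in the mitochondrial ones. The median member of ERI1 held 518.5 mitochondrial UMIs, against 527 in the other ERI1 cells. Its UMIs in all other genes numbered 153, against 16987, a ratio of the others to the members of 111. In ERI2 the medians were 828 mitochondrial UMIs in members and 662 in the others, and 273 and 17222 UMIs in other genes. ERI3 gave 472.5 and 330 mitochondrial UMIs, and 277.5 and 10999 in other genes.

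Paclitaxel conditions had the same arrangement. The member and the other median were 446 and 344 mitochondrial UMIs in PAC1, 581.5 and 506 in PAC2, and 577 and 332 in PAC3. In other genes they were 241 and 11377 UMIs in PAC1, 184 and 17049.5 in PAC2, and 215 and 12537 in PAC3. The member median of mitochondrial UMIs was thus 0.984 to 1.74 times that of the others across run 2, a ratio that the lowest count of 500 UMIs keeps from being low. In other genes the median of the others was 39.6 to 111 times that of the members.

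Run 1 members held more of the other genes' UMIs than run 2 members did. ERI4 members held a median of 2874.5 of them, against 19942 in the other ERI4 cells, and UNT members held 1701, against 17690. Run 2 members at or under 50% mitochondrial UMIs, the limit that all run 1 members met, held 973. How much of the difference between runs follows the filter was not tested. The mitochondrial UMIs of run 1 members were above those of the others, with 1509.5 against 982 in ERI4 cells and 1139.5 against 762 in UNT cells. The number of detected genes, mitochondrial genes included, was divided by the UMIs in other genes. This ratio had a median of 0.849 to 0.939 among run 2 members. Counting mitochondrial genes raises it, most where the UMIs in other genes are few, so it does not describe the other genes alone. The ratio was 0.565 among ERI4 members, 0.663 among UNT members and 0.217 to 0.275 in the other whole cells.

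**Figure D3:**
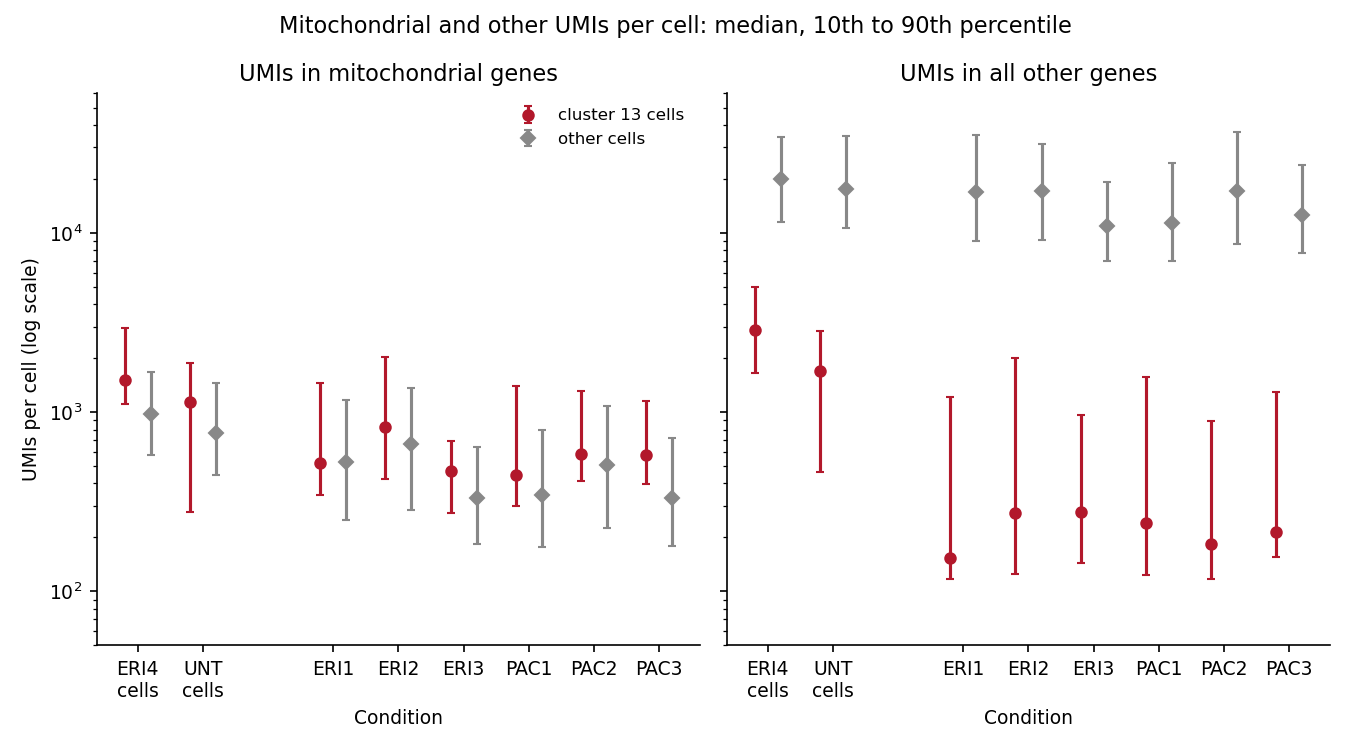
Medians with 10th to 90th percentiles of the UMIs per cell in mitochondrial genes (left) and in all other genes (right) are plotted on a log scale by whole-cell condition, for cluster 13 cells (circles) and other cells (diamonds). The mitochondrial UMIs of both groups overlap in every condition, whereas in ERI1 the other genes' UMIs stand at 153 in members and 16987 in the others.

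The part of run 2 under the 50% limit differed from the part over it also in these values. The 63 members at or under 50% had medians of 1424 UMIs, 689 genes and 973 UMIs outside mitochondrial genes. The 179 over it had 769 UMIs, 162 genes and 172 UMIs outside mitochondrial genes. Mitochondrial UMIs ran the other way, with 427 in the lower part and 613 in the higher. The 50 run 1 members, all under 50%, were deeper than both parts, with medians of 3894 UMIs and 1459 genes.

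Most shallow cells of run 2 and few of run 1 lay in cluster 13. Of the run 2 cells with under 2000 UMIs, 207 of 225 were members, 92.0% (87.7 to 95.2). Inside the stated filter 43 of 61 were, 70.5% (57.4 to 81.5). Of the run 1 cells under that count, 7 of 243 were, 2.88% (1.17 to 5.84), all 243 being inside the filter. All 7 were UNT cells, and none of the 150 shallow ERI4 cells was a member. The shallow run 1 cells outside cluster 13 had a median mitochondrial share of 5.16%. Of these, 58 of the 86 UNT cells lay in cluster 1, and the 150 ERI4 cells were most often in cluster 2, with 32 cells. In run 2 the 18 shallow cells outside cluster 13 had a median of 17.1%. In run 3 all 4653 nuclei under 2000 UMIs lay in other clusters.

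Hashtag oligos, which were counted apart from the RNA in run 2, were more abundant in cluster 13, most of all in its cells over 50% mitochondrial UMIs. The members' median was 1025 hashtag UMIs in ERI1, against 719 in the other ERI1 cells, 753.5 against 572 in ERI2 and 905 against 668 in ERI3. It was 552 against 452 in PAC1, 559.5 against 475 in PAC2 and 1225 against 601 in PAC3. Members were above the others in all 6 conditions, by ratios of 1.18 in PAC2 to 2.04 in PAC3. With the 6 conditions pooled, members over 50% mitochondrial UMIs had a median of 882 hashtag UMIs and those at or under it 546. The parts were closest in PAC2, at 565 and 523. At or under 50%, the members' median was below that of the other cells in ERI1, at 581, in ERI3, at 603, and in PAC1, at 449. It was 573 in ERI2, 523 in PAC2 and 634.5 in PAC3, above the others there.

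Lineage barcodes were detected in few members. In the whole-cell conditions a barcode was detected in 35 of 292 members, 33 of them in run 2. The share was 19.4% (8.19 to 36.0) in ERI1, 20.5% (9.80 to 35.3) in ERI2 and 5.56% (0.680 to 18.7) in ERI3, against 90.6%, 89.9% and 77.1% of the other cells of those conditions. It was 22.6% (9.59 to 41.1) in PAC1, 13.2% (4.41 to 28.1) in PAC2 and 5.26% (1.10 to 14.6) in PAC3, against 77.9%, 86.8% and 92.2% of the others. In run 1 it was 1 of 30 ERI4 members, against 74.5% of the others, and 1 of 20 UNT members, against 65.4%. Every nucleus in the table has at least 1 barcode feature, so detection carries no information there.

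Detection ran with depth and with the mitochondrial share inside the cluster. Of the run 2 members at or under 50% mitochondrial UMIs, 28 of 63 had a barcode, 44.4% (31.9 to 57.5). Of those over it, 5 of 179 had one, 2.79% (0.913 to 6.40). Run 2 members with a barcode had a median of 926 UMIs outside mitochondrial genes and those without one 195. Other shallow cells were numerous enough to compare only in run 1, since at most 5 other cells of any run 2 condition lay within the 90th percentile of its members' UMIs. Up to that limit, 20.1% (16.4 to 24.2) of 423 other ERI4 cells and 3.49% (1.29 to 7.44) of 172 other UNT cells had a barcode. Both intervals overlap those of the members, which are 0.0844% to 17.2% in ERI4 cells and 0.127% to 24.9% in UNT cells. In total UMIs the members were deeper than these shallow others, with medians of 4353 against 2936 in ERI4 cells and 2820 against 1989 in UNT cells. Outside mitochondrial genes, however, the mean per cell was lower in members of both conditions. There, 30 ERI4 members held 91820 UMIs and the 423 shallow others 1392977, and 20 UNT members held 36747 and the 172 shallow others 332258.

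**Figure D4:**
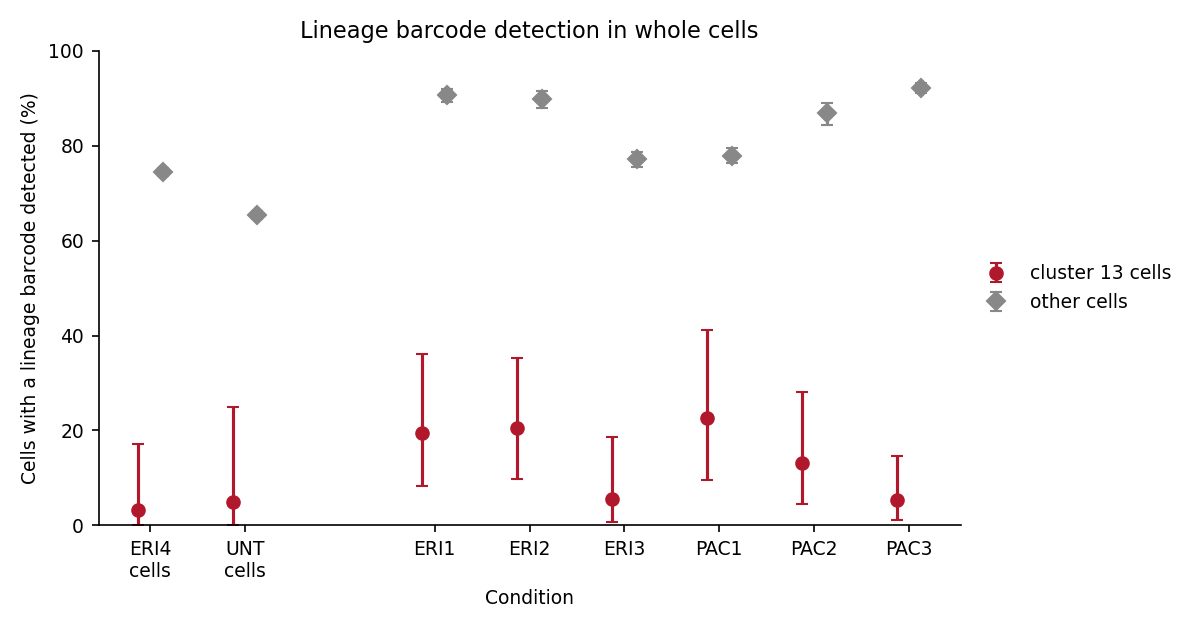
The percentage of cells with at least 1 lineage barcode detected is plotted by whole-cell condition with exact 95% intervals, for cluster 13 cells (circles) and other cells (diamonds). Members lie between 3.33% in ERI4 cells and 22.6% in PAC1, and the other cells between 65.4% in UNT cells and 92.2% in PAC3.

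The barcode counts were also set against the UMIs outside mitochondrial genes. Per 10000 such UMIs, with exact Poisson 95% intervals, there were 7.12 barcode UMIs (3.68 to 12.4) in ERI1 members and 9.98 in the others, and 3.22 (1.18 to 7.01) in ERI3 members and 5.52 in the others. The values were 4.38 (2.19 to 7.84) and 5.82 in PAC1, and 4.65 (1.87 to 9.58) and 7.08 in PAC2. In these 4 conditions the interval of the members includes the value of the others. In ERI3, however, 5 of the 6 barcode UMIs came from 1 cell, and in ERI1 5 of 12 did. Without that cell the rate was 0.660 (0.0167 to 3.68) in ERI3 and 4.51 (1.81 to 9.30) in ERI1, and neither interval includes the value of the others, while those of PAC1 and PAC2 without their leading cell still do. The leading cell was taken from the members only, which lowered their rate, and the others were left whole. These values therefore show only how far the rate rests on 1 cell. With all members kept, the interval does not include the value of the others in ERI2, with 3.17 (1.58 to 5.67) in members and 8.45 in the others, or in PAC3, with 0.957 (0.197 to 2.80) and 4.40. In run 1 there were 0.980 (0.448 to 1.86) in ERI4 members and 11.3 in the others, but all 9 barcode UMIs came from 1 cell. The 14 barcode UMIs of UNT members also came from 1 cell, and gave 3.81 (2.08 to 6.39), against 9.46 in the others. The shallow other cells had 8.05 in ERI4 cells, above the members, and 2.29 (1.80 to 2.86) in UNT cells, below them. UMIs of 1 cell are not independent, so these intervals are too narrow.

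Nearly every member with a barcode received a call. In the latest of the authors' calls 35 of the 294 members carry a named barcode, and none was called a doublet or multiplet. By whole-cell condition, 3.33% (ERI4 cells) to 20.5% (ERI2) of members had a named barcode. Among the other cells it was 46.1% (UNT cells) to 83.5% (PAC3). Of the 35 called members, 32 had only 1 barcode detected. Over all cells of a whole-cell condition, called or not, 0% (as in ERI1) to 6.45% (PAC1) of members had 2 or more. Among the other cells, which were deeper, it was 11.5% (ERI3) to 59.6% (UNT cells). The calls name 21 different barcodes, 14 of them in 1 cell each. In 24 of the 35 cells the call rested on 1 barcode UMI. Of the 35, 34 carried a barcode that was also called in other cells of the same condition. The matching share among the other called cells was not computed, so this count does not show that the calls are right. Per condition the number of called members was 7 in ERI1, 9 in ERI2, 2 in ERI3, 6 in PAC1, 5 in PAC2 and 3 in PAC3, and 1 each in ERI4 cells, UNT cells and UNT nuclei.

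The 3 barcodes called in more than 2 members are shown because they were called most often in the cluster. How many of the calls that rest on 1 UMI come from free barcode RNA was not tested. Each is given 5′ to 3′ from the authors' barcode list, with its 14-base and 30-base parts in capitals and the 4-base linker between them in lower case.
bc14-76-bc30-49517: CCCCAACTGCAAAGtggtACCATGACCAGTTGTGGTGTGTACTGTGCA
bc14-6-bc30-93034: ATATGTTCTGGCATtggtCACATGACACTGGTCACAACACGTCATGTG
bc14-22-bc30-18173: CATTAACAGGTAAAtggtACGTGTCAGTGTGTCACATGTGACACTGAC

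Barcode bc14-76-bc30-49517 was called in 6 members: 3 of 9 called members in ERI2, 2 of 6 in PAC1 and 1 of 3 in PAC3. Among the other called cells it made up 27.4% (24.4 to 30.5) of ERI2, 9.07% (7.78 to 10.5) of PAC1 and 48.9% (46.9 to 51.0) of PAC3. No member had it in ERI3, with 2 called members, or PAC2, with 5, where it made up 37.9% and 22.2% of the other called cells. Barcode bc14-6-bc30-93034 was called in 4 members: 1 of 2 in ERI3, 2 of 6 in PAC1 and 1 of 3 in PAC3. Its shares of the other called cells were 25.0% (23.2 to 26.8) in ERI3, 14.4% (12.8 to 16.1) in PAC1 and 7.18% (6.16 to 8.32) in PAC3. None of the 7 called ERI1 members had it, where its share of the others was 7.71%. Barcode bc14-22-bc30-18173 was called in 3 members, 2 of 9 in ERI2 and 1 of 7 in ERI1, and made up 14.0% (11.7 to 16.5) and 2.59% (1.81 to 3.59) of the other called cells there. Whether any lineage was over- or under-represented among the 35 called members was not tested.

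A further 4 barcodes were called in 2 members each. Barcode bc14-55-bc30-23349, which made up 68.4% of the other called ERI4 cells and 13.7% of ERI3, was called in the only called ERI4 member and in 1 ERI3 member. Both members with bc14-52-bc30-78401 were ERI1 cells, where it made up 1.11% of the others. Those with bc14-49-bc30-30722 were 1 ERI1 and 1 ERI2 cell, and those with bc14-47-bc30-43673 were 1 ERI1 and 1 PAC1 cell. No barcode reached 5 members in 1 condition.

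In the authors' UMAP the members formed 1 compact group that mixed the conditions of run 2. Within a distance of 1 unit from the median position lay 267 of the 294 members. On average 90.5% of the 30 nearest neighbours of a member were members too, and by whole-cell condition this ran from 78.9% for ERI4 cells to 96.7% for PAC2. Of the neighbours of ERI4 members 75.1% came from their own run, and of those of UNT members 33.7%. Of the ERI4 members, 14 of 30 lay farther than 1 unit from the cluster's median position, against 1 of 20 UNT members. The ERI4 members' own median position was 0.964 units from that of the cluster, and 5 of the 30 lay farther than 1 unit from their own. The 2 nuclei lay apart, and none of their neighbours was a member.

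**Figure D5:**
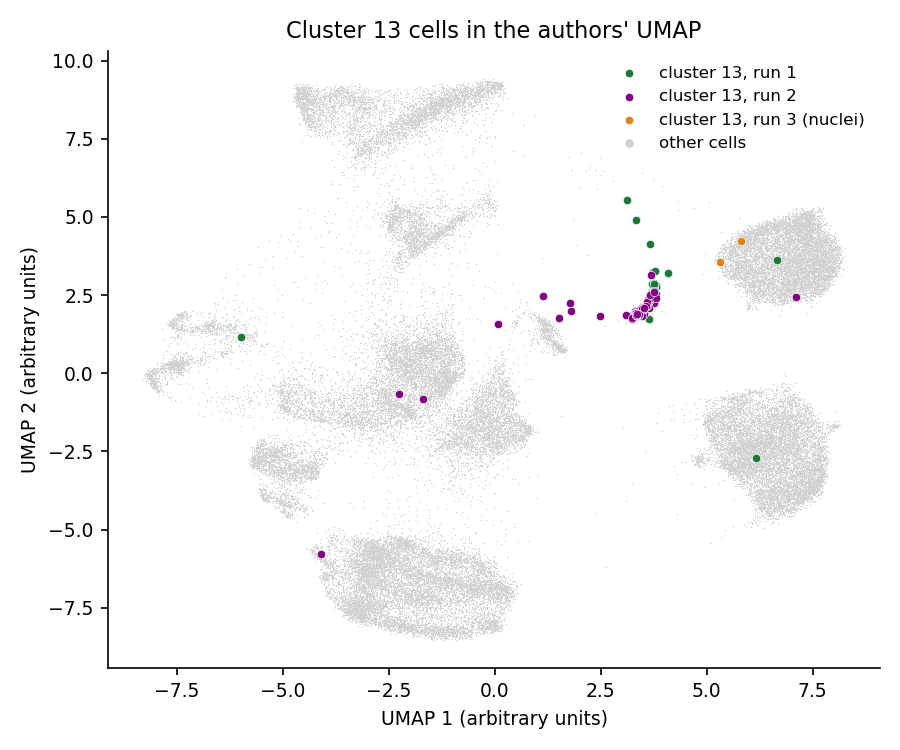
The authors' UMAP is plotted in arbitrary units, with cluster 13 cells coloured by run over all other cells in grey. Most members sit in 1 small group, with 267 of 294 within 1 unit of the median position, and the 2 nuclei of run 3 lie outside it.

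Pseudotime did not resolve these cells. Of the 294 members, 285 carry one and the same value, 19.6, whichever their condition, and 111 cells of other clusters carry it too. All members of ERI1, PAC2 and PAC3 had this value. It is above the median of the other UNT cells and below that of the other ERI4 cells, and gives no order among members.

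Median G2M scores were near 0 in the members and the other cells of run 2, and higher in ERI4 members of run 1. The median G2M score, the authors' score for genes of the G2 and M phases on an arbitrary scale, lay between -0.04 in ERI1 and -0.01 in ERI3 among run 2 members. Among the other run 2 cells it lay between -0.07 in PAC1 and -0.04 in ERI2. In ERI1 the 10th and 90th percentiles were -0.16 and 0.02 in members, against -0.41 and 0.35 in the others. In ERI4 members it was 0.29, with 23 of 30 above 0, against -0.11 in the other ERI4 cells, 40.8% of them above 0. Among the 423 shallow other ERI4 cells described above the median was also -0.11, with 32.4% above 0. In UNT members it was 0.03, with 11 of 20 above 0, against -0.06 in all other UNT cells and -0.07 in the 172 shallow ones. Members with a score above 0 were deeper than the rest, with medians of 4612 against 3311 UMIs in ERI4 cells and 4183 against 1852 in UNT cells. Whether the difference between runs follows depth was not tested. The median S score of members was -0.13 in ERI4 cells and -0.08 in UNT cells. The part of free RNA in these scores was not tested, and no rate of division is read from them.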

How the data were processed

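Single-cell and single-nucleus RNA libraries (6 libraries, 10 conditions, 3 runs) were analysed from the authors' table of cells. The submitters' processing notes and the design text of the series state that reads were counted on mm10 with Cell Ranger 3.1.0 (run 1), Cell Ranger 4.0.0 (run 2) and Cell Ranger ARC 1.0.0 (run 3), cells were filtered and clustered with Seurat 3.1.4, and pseudotime came from Monocle3 0.2.1. The deposited counts are UMIs, genes, barcode UMIs and hashtag UMIs per cell, not normalized. The deposited percent values give how much of each cell's UMI total fell in mitochondrial genes. The deposited score values are cycle scores, pseudotime and UMAP coordinates. Another 18 columns of the table were not used.

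Members were the cells with cluster number 13. Mitochondrial UMIs were computed as total UMIs times the mitochondrial share. Shares have exact Clopper-Pearson 95% intervals, and beside a share of 0 the share that 3 cells would make is given. Medians, intervals and the 30 nearest neighbours were computed with Python 3.11.15, pandas 2.3.3, scipy 1.17.1 and scikit-learn 1.9.0. Differences between conditions were computed within runs, and values of different runs are given only side by side. Doublets were handled only through the authors' barcode calls. The barcodes named are the 5 most frequent among members, with ties, and any carried by 5 members of a condition. The members and lists were chosen with earlier results of these data known. Alternatives changed the filter, the definition, the UMI minimum (1000), the summary and the barcode call.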

Additional observations from a re-analysis of the deposited data

Results flagged for a closer look

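Changes were compared between the drugs, or between cells and nuclei, for 11 quantities and contrasts, and 5 went in opposite directions. None of these differences was tested, and each condition had 1 library. The share of cells in cluster 13 was 0.141 percentage points higher in ERI4 than in UNT cells, while the ERI4 minus UNT difference was -0.0202 in nuclei, where it rests on 2 nuclei. Between rounds 2 and 1 the median UMIs of members changed by 387 with eribulin and by -60 with paclitaxel, and the median genes by 85.5 and by -35. Between rounds 3 and 2 the median UMIs changed by -456 with eribulin and by 207 with paclitaxel. Among members with at least 200 genes the eribulin change was -969 and the paclitaxel change -249, so both then had the same direction. The share of members with a detected barcode changed between rounds 2 and 1 by 1.01 percentage points with eribulin and by -9.42 with paclitaxel, and the intervals of rounds 1 and 2 overlap for both drugs.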

How the results depend on the processing

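No paired analysis was possible because each condition has 1 library and no test was made. Of 112 recomputed values, 73 stayed within the 95% interval of the reported one, 37 left it and 2 changed sign. Part of the 73 could not move. No cell of run 1 or run 3 lies outside the stated filter, all nuclei have over 1000 UMIs, and no run 1 member has under 200 genes. Inside the stated filter the share in cluster 13 was 0.544% in ERI1, 0.899% in ERI2, 0.426% in ERI3, 0.413% in PAC1, 0.613% in PAC2, 0.437% in PAC3, since the filter removes the cells over 50%. The differences were then 0.355 percentage points for ERI2 minus ERI1, -0.473 for ERI3 minus ERI2, 0.201 for PAC2 minus PAC1, -0.177 for PAC3 minus PAC2, 0.131 for ERI1 minus PAC1 and -0.0110 for ERI3 minus PAC3, and 0.285 for ERI2 minus PAC2, which changed sign. With cells over 50% mitochondrial UMIs in place of the cluster, the share was 0 in ERI4 cells, UNT cells and UNT nuclei, 0.748% in ERI3 and 0.649% in PAC1, and no difference changed direction apart from those that became 0. Among cells with at least 1000 UMIs the share was 0.760% in ERI1, 2.26% in ERI2, 0.426% in ERI3, 0.481% in PAC1, 1.82% in PAC2, and 0.978% in PAC3 cells. The differences at that minimum, chosen after seeing the data like the values without a leading cell, inside the filter for shallow cells, from a condition's own UMAP position and of rounds with at least 200 genes, were 1.34 for PAC2 minus PAC1, -0.840 for PAC3 minus PAC2 and 0.438 for ERI2 minus PAC2, which changed sign. The median mitochondrial share of members was then 51.0% in ERI1, 34.7% in ERI3, 26.9% in PAC1 and 71.4% in PAC2. The mean in place of the median gave 67.4% in ERI2, 57.5% in PAC1 and 64.9% in PAC3, so that PAC3 was no longer below PAC1. Members with at least 200 genes had median UMIs of 1462 in ERI1, 2010 in ERI2, 1041 in ERI3, 1640 in PAC1, 1439.5 in PAC2 and 1190.5 in PAC3, so the paclitaxel change between rounds 3 and 2 turned to -249. Barcode detection and calls, the first revision of the call included, stayed within their intervals. The 500 UMI floor of the table and the small number of members limit all values.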
